A study of Mus musculus with 6 samples.

Results

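Id1, Id2, Id3 and Id4 are the inhibitors of DNA binding, a family of 4 small helix-loop-helix proteins. Their probe sets were taken from the platform annotation wherever it gave exactly 1 gene symbol equal to a family member. This found 8 probe sets, 1 for Id1, 3 for Id2, 1 for Id3 and 3 for Id4, so 4 of the 18193 genes with such a probe set. The arrays carry RNA from cortex of Glt25d2 bacTRAP mice of line DU9, backcrossed 3 to 5 generations from FVB to C57BL/6. The transgene puts a tag on ribosomes under control of Glt25d2 (now Colgalt2), which marks layer 5 pyramidal cells, and affinity purification of those ribosomes (TRAP) enriches messages under translation there. Fluoxetine-treated mice drank 0.167 mg/ml fluoxetine in 1% saccharine and vehicle mice drank 1% saccharine alone, both for 15 to 18 days, and all mice carried the transgene. There were 3 arrays per treatment, numbered 1, 2 and 3 in each. The labels call them biological replicates and do not say how many mice were pooled in each, so p-values measure the spread between these samples.

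The labels contradict themselves: the description of every sample gives the treatment opposite to its title. The names fluoxetine-titled and vehicle-titled used here follow the titles, with which the source and treatment fields go. If the descriptions were right, every treatment difference would change sign. Arrays of equal number deviated together, and the 2 arrays numbered 1 stood apart from the other 4 on the first principal component, which held 60.0% of the variance. Of 12 layer 5 projection genes listed, 10 had a probe set and all 10 passed an intensity filter of 50, with Colgalt2 between 709.2 and 986. All 14 astrocyte, 9 oligodendrocyte and 10 interneuron markers with a probe set passed it as well. With 3 arrays a group, precision is limited.

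Helix-loop-helix transcription factors bind DNA as dimers through a basic stretch beside the dimer-forming region. Id proteins have that region but no basic stretch, so a dimer with an Id protein cannot bind DNA. They mainly capture the E proteins, which are the partners of tissue-specific factors, and so hold cells away from differentiation. Bone morphogenetic proteins (BMPs) acting through Smad factors are classical inducers of Id genes. In the brain Id1 and Id3 are known from vessel cells and stem-like glia, Id2 from neurons, and Id4 from astrocytes and neural precursors.

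The bases before the start sites are shown so that the family's regulatory sequence can be read beside the values. They come from RefSeq on build GRCm38.p6, where Id2, Id3 and Id4 were matched by symbol with 1 start each, and Id1 was not matched. Each line gives the 250 bases before the start, 5′ to 3′ on the strand of the gene, with matches to the motifs named next in capitals. They lie at chr12:25096093-25096342 (minus strand) for Id2, chr4:136143572-136143821 (plus strand) for Id3 and chr13:48260866-48261115 (plus strand) for Id4.
Id2: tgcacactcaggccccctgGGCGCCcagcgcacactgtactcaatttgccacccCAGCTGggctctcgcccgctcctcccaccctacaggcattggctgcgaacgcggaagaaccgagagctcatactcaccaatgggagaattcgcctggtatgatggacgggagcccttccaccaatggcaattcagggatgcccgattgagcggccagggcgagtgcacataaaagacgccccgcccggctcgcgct
Id3: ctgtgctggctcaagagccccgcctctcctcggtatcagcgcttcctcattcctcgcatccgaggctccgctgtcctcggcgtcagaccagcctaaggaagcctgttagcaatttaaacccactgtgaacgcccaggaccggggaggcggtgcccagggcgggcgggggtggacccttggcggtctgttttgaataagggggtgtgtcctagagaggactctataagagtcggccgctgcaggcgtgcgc
Id4: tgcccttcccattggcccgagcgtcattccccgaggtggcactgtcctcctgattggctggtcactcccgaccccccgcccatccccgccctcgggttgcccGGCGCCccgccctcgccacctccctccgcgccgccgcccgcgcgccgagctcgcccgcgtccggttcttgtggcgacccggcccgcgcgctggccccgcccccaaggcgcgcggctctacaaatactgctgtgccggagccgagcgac
The motifs searched, on both strands of the 300 bases from 250 before to 50 after each start, were the following. The first, GGCGCC, which reads the same on both strands, had 1 match in Id2, starting 231 bases before the start, and 1 in Id4, starting 148 bases before it. It is in 11.9% of all 32851 windows of that length. The motif CAGCTG, an E-box of the kind that E proteins bind, had 1 match, in Id2, starting 196 bases before the start, and is in 16.3% of windows. There were 0 matches in the 3 windows to GTCTAG, which is in 8.37% of all windows, or to TGACGTC, which is in 3.21% of them. The same held for the E-box CACGTG, found in 7.15% of windows, and for the TATA motif TATAAA, found in 13.6%. No 2 matches overlapped. A match is a run of letters and not a shown binding site. The GC content of the printed bases was 62.8% for Id2, 62.8% for Id3 and 75.6% for Id4, against a median of 52.4% over the same stretch of all windows.

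The values that follow are the authors' GCRMA intensities, 1 linear value per probe set and array. Intensities of different probe sets share no scale, so only arrays are compared. Probe sets were tested where the mean of at least 1 treatment reached 50, which kept 7 of the 8 Id probe sets and all 4 genes.

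Within the family Id1 varied most between arrays. Its probe set 1425895_a_at read 731, 171 and 178 on fluoxetine-titled arrays 1, 2 and 3 and 424, 149.9 and 304 on vehicle-titled arrays 1, 2 and 3. Both arrays numbered 1 were higher than the other 4, vehicle-titled array 3 came next, and the treatments overlapped. The highest array read 4.88 times the lowest.

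For Id2 the brighter probe set, 1435176_a_at, read 17825, 12115 and 13746 on the fluoxetine-titled arrays and 15327, 12963 and 14415 on the vehicle-titled arrays. The second, 1422537_a_at, read 1137, 709.8 and 647 against 894, 647 and 992. On both, fluoxetine-titled array 1 was highest. Vehicle-titled array 1 came second on the first probe set, while vehicle-titled array 3 came second on the other. The highest array read 1.47 times the lowest on the brighter probe set and 1.76 times on the second. The third Id2 probe set, 1453596_at, lay between 6.75 and 7.71 on all arrays, under the filter, and was not tested.

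Id3 was read by 1416630_at, with 740.1, 592 and 518 on the fluoxetine-titled and 583, 459.9 and 500.2 on the vehicle-titled arrays. The fluoxetine-titled array was the higher in each pair of equal number, by a small margin in pair 3, although the groups overlapped.

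The 3 Id4 probe sets were designed from 1 accession and did not order the arrays alike. 1423259_at read 2130.1, 2364 and 1849 on the fluoxetine-titled and 2705, 2597 and 1502 on the vehicle-titled arrays. 1450928_at read 1009, 1436 and 1247 against 1212, 1485 and 935. On both of these, vehicle-titled array 3 was the lowest. On the dimmest, 1423260_at, with 110.1, 174 and 129 against 120.1, 185 and 172, the lowest were the arrays numbered 1, and vehicle-titled array 3 was among the 3 highest.

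**Figure D1:**
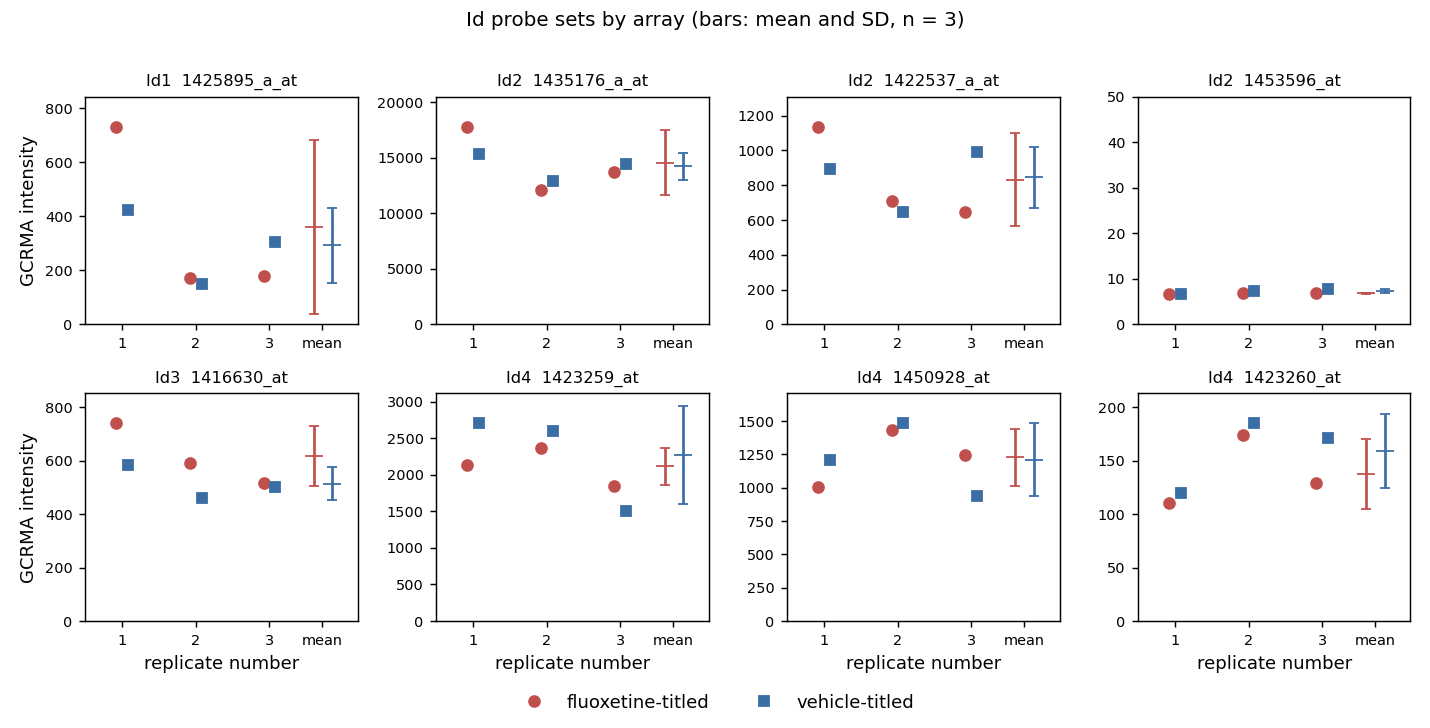
Intensity (linear axis from 0) of each of the 8 Id probe sets on the 6 arrays by replicate number, with the mean and SD of each treatment (n = 3) at the right. Id1 ran from 149.9 to 731 with both arrays numbered 1 highest, while Id2 1453596_at stayed at or below 7.71.

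The comparison of treatments asks how 15 to 18 days of fluoxetine alter messages translated in these cells. No Id gene passed the test. Over the 19073 probe sets kept, limma gave 0 calls (0% of probe sets) at an adjusted p of 0.05, and 121 (0.634%) at an unadjusted p of 0.05. Of the 7 Id probe sets, 0 reached either threshold. The groups overlapped for all 7, where 1.64% of all probe sets had every fluoxetine-titled array above every vehicle-titled one and 2.01% had the reverse.

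Id3 had the largest positive difference of the family. Its mean intensity was 617 ± 113 (SD, n = 3) with fluoxetine in the title and 514 ± 62.5 (SD, n = 3) with vehicle. The log2 difference was 0.25 ± 0.18 (SE; limma adjusted p = 1, unadjusted 0.193). By pair the fluoxetine-titled array read 1.27, 1.29 and 1.03 times the vehicle-titled one. It was the single Id probe set of the 7 tested that was higher in all 3 pairs, as were 10.9% of all probe sets. The 95% interval of the ratio, 0.894 to 1.59, contains 1 and leaves out a doubling.

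Id1 had 360.4 ± 321 and 292 ± 137, a log2 difference of 0.071 ± 0.62. The pairs pointed in opposite directions, with log2 differences of 0.79, 0.19 and -0.77 for pairs 1, 2 and 3. Without fluoxetine-titled array 1 the difference was -0.62, and without vehicle-titled array 2 it was -0.35. The 95% interval of the ratio ran from 0.382 to 2.89 in this fit, which does not use the pairing by replicate number. Without the pairing, these arrays thus do not set a narrow bound on Id1. With replicate number as a block in limma, the SE of the Id1 difference was 0.27 (unadjusted p = 0.799). In limma each SE is drawn toward the spread shared by all probe sets, whose median SE in that fit was 0.11. The 3 pairs of Id1 ran from -0.77 to 0.79, so the 0.27 is not read here as a narrow bound. In the fit without the block, the other 6 probe sets tested all had intervals within 2-fold in either direction.

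Id2 differed little. 1435176_a_at had 14562 ± 2941 and 14235 ± 1192, a log2 difference of 0.017 ± 0.18, and its 95% interval of the ratio was 0.761 to 1.35. 1422537_a_at had a log2 difference of -0.045 ± 0.26, and pair 3 stood out at -0.62 against 0.35 and 0.13 in pairs 1 and 2.

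Id4 had log2 differences of -0.060 ± 0.25 on 1423259_at, 0.034 ± 0.21 on 1450928_at and -0.21 ± 0.23 on 1423260_at. The last was lower in all 3 pairs, as were 13.4% of all probe sets. On the first 2 probe sets, pairs 1 and 2 were negative and pair 3 positive (0.30 and 0.41). On 1423260_at pair 3 was the most negative, at -0.41. The probe sets of this gene therefore disagree on the direction in pair 3.

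**Figure D2:**
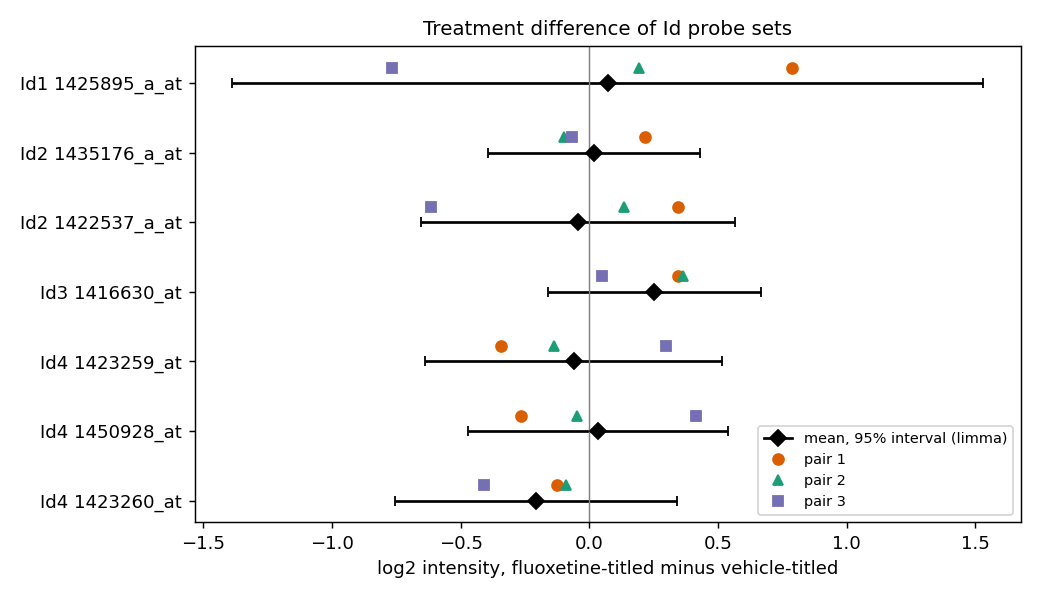
Log2 difference of intensity, fluoxetine-titled minus vehicle-titled, for the 7 Id probe sets tested. Diamonds and bars give the mean and limma's 95% interval, and small symbols the 3 pairs of equal replicate number. The intervals do not use the pairing. Every interval contains 0, and Id1's, from -1.39 to 1.53, is the widest.

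The second comparison sets the 2 arrays numbered 1, which hold 1 array of each treatment, against the other 4. No label says what a replicate number stands for. The family was selected on intensities of these same 6 arrays, with earlier results known, so these differences are given as a description, without a test. On the arrays numbered 1, Id1 was 2.88-fold higher, a log2 difference of 1.53. The ratio was 4.18 within the fluoxetine-titled and 1.99 within the vehicle-titled arrays. Id1 lay at 424 and 731 against 149.9 to 304.

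Of the 7 Id probe sets, 2 had both arrays numbered 1 above the other 4 (Id1 and Id2 1435176_a_at), 1 had both below (Id4 1423260_at) and 4 overlapped. Among all probe sets kept, 23.5% had both above and 21.6% both below. Id1 was the single Id probe set that also differed by at least 1.5-fold, as did 4.8% of all probe sets in the upward direction and 7.8% downward. Id2 was 1.24-fold higher on 1435176_a_at, with 15327 and 17825 against 12115 to 14415. On 1422537_a_at it was 1.37-fold higher with overlap, since vehicle-titled array 3 read 992. Id3 was 1.27-fold higher, and its vehicle-titled array 1, at 583, lay below fluoxetine-titled array 2, at 592.

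The Id4 probe sets split. 1423259_at was 1.18-fold higher on the arrays numbered 1, while 1450928_at was 1.14-fold and 1423260_at 1.42-fold higher on the other 4. For 1423260_at the 2 sets did not overlap, at 110.1 and 120.1 against 129 to 185. A direction for Id4 in this comparison thus depends on the probe set read.

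**Figure D3:**
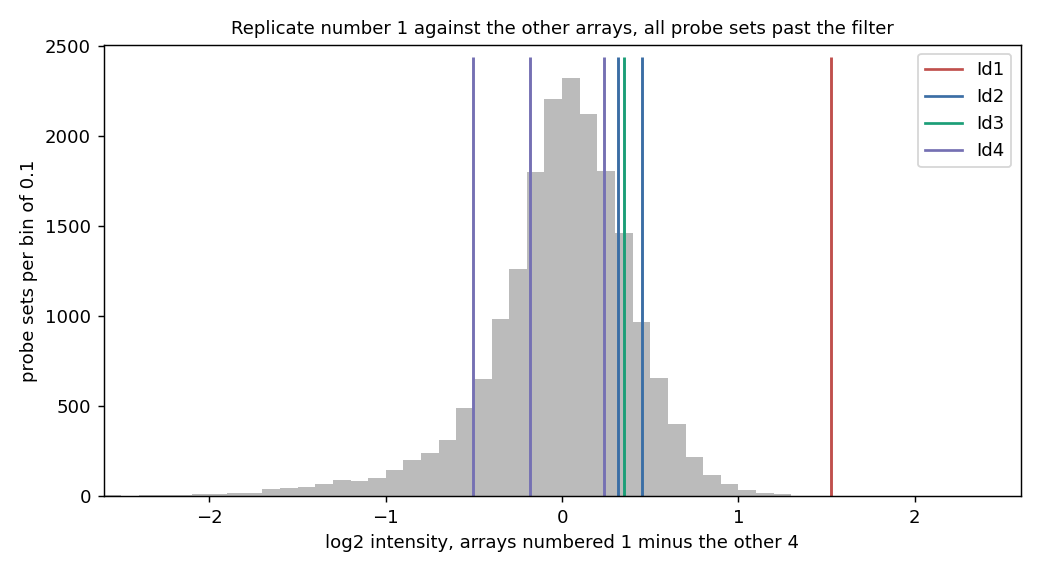
Number of probe sets (bins of 0.1) by log2 difference between the arrays numbered 1 and the other 4, over the 19073 probe sets kept; vertical lines mark the 7 Id probe sets. Id1 lies at 1.53 in the right tail, and the other 6 lie between -0.51 and 0.45.

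Of 4 ratios of control probe sets that bear on RNA quality, 1 had no overlap between the arrays numbered 1 and the other 4. The ratio of the 3′ to the middle control probe set of Actb was 4.50 and 4.85 on the arrays numbered 1 and between 3.52 and 3.88 on the other 4. The ratio of 3′ to 5′ for Actb overlapped, at 6.50 and 8.26 against 7.51 to 8.46. For Gapdh the 3′ to middle ratio was 1.61 and 1.69 against 1.67 to 1.75, and the 3′ to 5′ ratio was 1.85 and 2.38 against 2.34 to 3.09, both with overlap. Their part in the Id differences was not tested.

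The genes most like each Id gene over the 6 arrays were found by Pearson correlation of log2 intensity, on the probe set of highest mean, against 10829 other genes. These correlations are descriptions over 6 arrays that share the split by replicate number. For Id1 they were Rpl27, a ribosomal protein gene (r = 0.999), Pomp, a proteasome assembly factor gene (r = 0.997), and Bphl, a hydrolase gene (r = 0.995). Without the arrays numbered 1, the 2 farthest from the Id1 median, r was 0.998, 0.989 and 0.970 over 4 arrays. Those 4 arrays were among the 6 used to choose the genes, so these values are no separate check. The size differed. Rpl27 was 1.39-fold, Pomp 1.48-fold and Bphl 1.12-fold higher on the arrays numbered 1, against 2.88-fold for Id1. The Rpl27 probe set, 1453096_x_at, is of a class that can bind related sequences, as is that of Rps9 named next.

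For Id2 the nearest were Brd7, a bromodomain protein gene (r = 0.993), Nt5c, a nucleotidase gene (r = 0.988), and Cdc42ep3, a Cdc42 effector gene (r = 0.988). For Id3 they were the zinc finger gene Zfp566 (r = 0.989), the ribosomal protein gene Rps9 (r = 0.984) and Tatdn2 (r = 0.983). For Id4, read by 1423259_at, they were Rorb, a nuclear receptor gene known from cortical layer 4 (r = 0.994), the kinase gene Sgk2 (r = 0.993) and the coat protein gene Arcn1 (r = 0.992). Without the 2 arrays farthest from the member's own median, r for these 9 genes ranged from 0.908 (Rps9) to 0.998 (Cdc42ep3). Here too the arrays left had been used to choose the genes. Rorb read 454, 516 and 429 on the fluoxetine-titled and 583, 566 and 348 on the vehicle-titled arrays, lowest on vehicle-titled array 3 like Id4.

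Among BMP ligands, 7 of 10 listed genes had a probe set and 2 passed the filter. Bmp1, a protease that shares the name, lay between 127.9 and 198, and Bmp2 between 65.6 and 97.9. Bmp4, Bmp5, Bmp6, Bmp7 and Gdf5 stayed at or below 40.6 on every array. On fluoxetine-titled arrays Bmp2 read 65.6, 75.5 and 97.9, and on vehicle-titled arrays 71.4, 72.8 and 84.4, so the arrays numbered 1 were the lowest.

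Of 10 BMP and TGF-beta receptor genes 8 were measured. Acvr2a, a type 2 receptor for activins and some BMPs, read 730.2 and 692 on the arrays numbered 1 against 367 to 456 on the other 4, which is 1.78-fold higher, and its second probe set was above as well. The type 1 receptor gene Bmpr1a lay between 463 and 545 and the type 2 receptor gene Bmpr2 between 3089 and 4076. Neither Bmpr1a nor Bmpr2 separated the arrays numbered 1 from the rest. Acvr1, a further gene of the list, read 750 and 835 on the arrays numbered 1 against 575 to 745, 1.23-fold higher. Of the 8 genes, 2 lay above on the arrays numbered 1 and 0 below, where 24.4% and 19.9% of all genes measured did.

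Genes that restrain BMP signals lay on both sides. Of 10 listed, 7 were measured. On the arrays numbered 1, 3 lay above the other 4, 1 below and 3 overlapped, where 24.4%, 19.9% and 55.7% of all genes measured did. By the 1.5-fold rule 2 were higher and 1 lower, against 4.51% and 5.23% of all genes. Twsg1, above but short of 1.5-fold, read 60.4 and 67.0 against 37.2 to 50.3. Bambi, a receptor-like protein with no kinase that is itself known as a BMP target, read 169 and 129 on the arrays numbered 1 and 76.1 to 96.4 on the other 4, 1.75-fold higher. Chrdl1, a secreted BMP antagonist, read 153 and 166 against 73.3 to 142, 1.56-fold higher. Chrd, which encodes chordin, read 59.8 and 84.3 against 99.1 to 118, 1.51-fold lower. Fst, which encodes follistatin, overlapped, with 81.8, 65.6 and 41.8 on the fluoxetine-titled and 59.4, 43.5 and 22.9 on the vehicle-titled arrays. The list's median log2 difference was 0.47, beside 0.037 over all 10830 genes measured. That median is the value of Twsg1, which like Fst read under the filter level of 50 on some arrays. It was 0.35 with values under 50 set to 50 and 0.36 with a pseudocount of 16. Nog and Grem1 stayed at or below 16.9.

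The Smad genes varied less. Of 11 Smads and feedback genes 8 were measured, with a median of 0.0034. On the arrays numbered 1, 1 of the 8 lay above the other 4 and 2 lay below, where 24.4% of all genes measured lay above and 19.9% below. Smad7, an inhibitory Smad that BMP and TGF-beta signals induce, read 259.5 and 232 on the arrays numbered 1 and 184 to 213 on the other 4. Smad5, a further carrier of BMP signals, read 145 and 148 against 149 to 197, and Smurf1, a ligase that removes Smads, read 186 and 217 against 242 to 268, 1.27-fold lower. Smad1, which also carries BMP signals, lay between 1835 and 2661 with overlap. Smad6, Smad9 and Atoh8 were under the filter.

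Some partners of Id proteins lay lower on the arrays numbered 1, although the median of their list was -0.087. Of 9 listed genes 8 were measured, and 3 lay at least 1.5-fold lower on the arrays numbered 1 with no overlap. The E protein gene Tcf3 read 33.3 and 38.4 on the arrays numbered 1 and 65.6 to 123.9 on the other 4, 2.62-fold lower. Both Tcf3 values on the arrays numbered 1 lay under the level set by the intensity filter, so the size of its fold is uncertain. Tcf4, a further E protein gene, read 2918 and 3607 against 6014 to 6689, 1.94-fold lower, and all 5 of its probe sets were below, with log2 differences from -1.02 to -0.24. Ets2, an ETS factor gene, read 817 and 707 against 1645 to 4157, 3.53-fold lower, and both of its probe sets were below. The remaining E protein gene, Tcf12, lay between 895 and 1297 with overlap. Rb1, the retinoblastoma gene, lay above instead, with 1123 and 1169 against 706 to 1093. Over all genes measured, 5.23% were lower and 4.51% higher by the same rule.

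Among helix-loop-helix factors of neurons and glia, 7 of 16 listed genes were measured and 0 passed the 1.5-fold rule. Of all genes measured, 4.51% passed it upward and 5.23% downward. Neurod6, a factor of cortical pyramidal cells, read 2221 and 2462 on the arrays numbered 1 against 1735 to 2188 on the other 4. Neurod2 lay below instead, with 594 and 579 against 602 to 798, and the other 5 overlapped. Of 7 Hes and Hey repressor genes, the classical targets of Notch, 5 were measured and all 5 overlapped, as did 55.7% of all genes measured. Hes1 lay between 220.4 and 336.

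**Figure D4:**
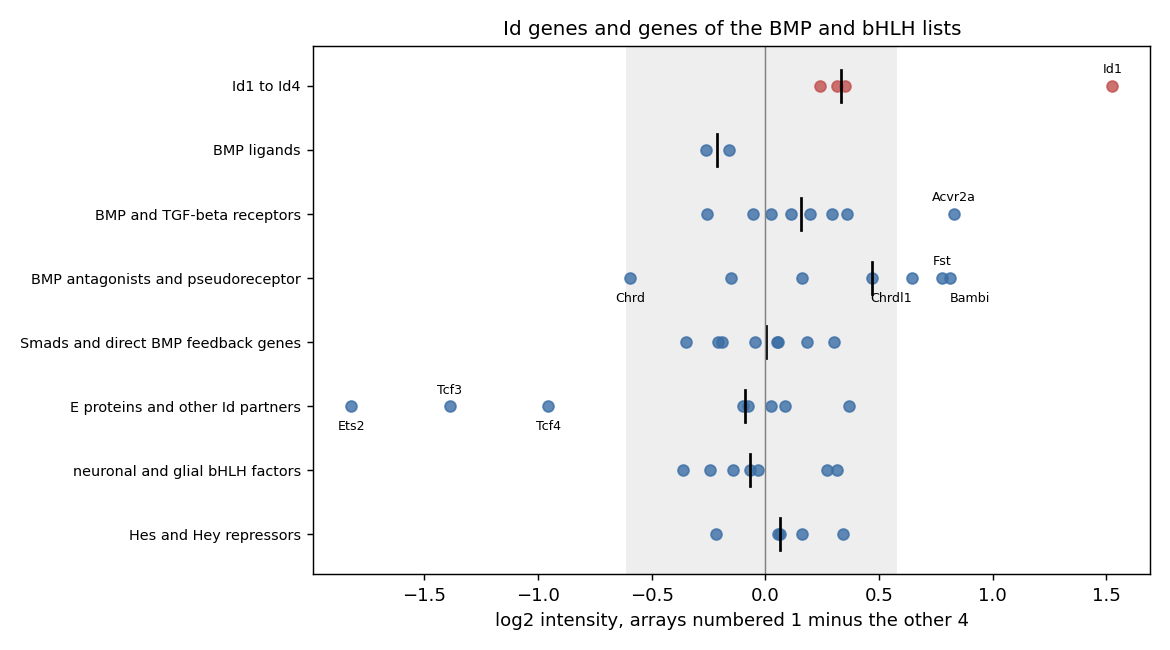
Log2 difference between the arrays numbered 1 and the other 4 for the 4 Id genes and the measured genes of 7 lists, 1 point per gene on its probe set of highest mean, with the list median as a bar and the 5th to 95th percentile of all genes (-0.61 to 0.58) shaded. Names mark genes at 1.5-fold or more: Id1, Acvr2a, Fst, Bambi and Chrdl1 lie to the right, and Chrd, Tcf4, Tcf3 and Ets2 to the left.

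Between the treatments, 0 genes of these 7 lists passed an adjusted p of 0.05 in limma in either direction. At an unadjusted p of 0.05 there were 2, and over all genes measured 0.591% reached it. Ets1, an ETS factor gene, had a log2 difference of 0.41 ± 0.17 (unadjusted p = 0.0442), and Atoh7, a helix-loop-helix factor known from the retina, had 0.82 ± 0.22 (unadjusted p = 0.00747). The list medians lay between -0.053 for BMP ligands and 0.11 for receptors, beside -0.0068 over all genes.

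Markers of other cell types moved with some of these values. In bulk RNA, fewer cells of a type and less RNA per cell cannot be told apart. Of 14 endothelial and mural markers, 9 were measured, and their summed intensity was 5767 and 6719 on the arrays numbered 1 against 4427 to 5259 on the other 4. The glucose transporter gene Slc2a1 made up 55.3% to 63.6% of that sum, and without it the sums overlapped, at 2100 and 2649 against 1693 to 2353. Of the 9, 2 had both arrays numbered 1 above the rest and 0 below, near the 24.4% above and 19.9% below of all genes measured. Their median log2 difference was 0.32, and 0.018 without fluoxetine-titled array 1. The mean log2 intensity of all 9 was the higher in the fluoxetine-titled group, as it was for 47.8% of all genes, by 0.28 at the median beside 0.25 for Id3, and 0 passed an adjusted p of 0.05 in limma (1 at an unadjusted p of 0.05). The sums overlapped, at 4943 to 6719 on the fluoxetine-titled and 4427 to 5767 on the vehicle-titled arrays. This direction was not particular to vessel markers. The median treatment difference was 0.24 for immediate early genes, 0.21 for astrocytes, 0.20 for microglia and 0.17 for oligodendrocyte precursors. It was 0.14 for oligodendrocytes, 0.11 for interneurons and -0.081 for layer 5 projection genes. The endothelial genes Pecam1 (6.34 to 10.6), Cdh5 (12.9 to 19.8), Kdr (20.7 to 31.5), Flt1 (30.6 to 48.9) and Tek (28.9 to 60.2) did not pass the filter. Cldn5 (317 to 721), Esam (111 to 170) and Abcb1a (56.7 to 118), also of the list, did pass it. Slco1a4, a transporter gene of brain vessels noticed after its values were seen, read 349, 159 and 141 on the fluoxetine-titled and 199.9, 121 and 209 on the vehicle-titled arrays. Like Id1, it was highest on fluoxetine-titled array 1 and lowest on vehicle-titled array 2, but unlike Id1 the arrays numbered 1 overlapped the rest. Other members of the list ran the opposite way, as did Pdgfrb, a pericyte receptor gene, with 172 and 145 on the arrays numbered 1 against 169 to 352, 1.56-fold lower with overlap. The part of vessel RNA in the Id1 and Id3 differences was not tested.

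Of 10 microglia markers 7 were measured, with sums of 2792 and 3259 on the arrays numbered 1 and 1248 to 2926 on the other 4. Of these, 3 had both arrays numbered 1 above the rest and 0 below, where 24.4% and 19.9% of all genes did. All 3 were also at least 1.5-fold higher, as were 4.51% of all genes. The list's median log2 difference was 0.50, the largest of the marker lists, beside 0.32 for vessel markers. One of the 3, Csf1r, has 2 further probe sets that overlapped (log2 differences of 0.094 and -0.19). Cx3cr1 was 1.85-fold lower on the arrays numbered 1 with overlap, at 63.0 and 73.2 against 72.7 to 185, and Itgam, P2ry12 and Tyrobp did not pass the filter.

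Markers of several cell types were low, together with 2 Id4 probe sets, on vehicle-titled array 3. The medians of 6 of 8 marker lists, among which the immediate early genes were counted, were lowest there. For astrocytes, the median of the 14 markers, each centred on its mean over the 6 arrays, was -0.67 there and between -0.00081 and 0.22 on the other 5. On that array it was -1.01 for microglia, -0.59 for oligodendrocytes, -0.51 for interneurons, -0.47 for oligodendrocyte precursors and -0.26 for vessel markers. Outside the marker lists, the medians of the BMP and TGF-beta receptors (-0.23) and of the neuronal and glial helix-loop-helix factors (-0.078) were also lowest there. Those of the other lists outside the markers were not. The share of all genes that were lowest on that array is not given here. The low values were thus shared by markers of several cell types and by some other lists, but not by markers of the purified cells. The median of the layer 5 projection genes was 0.11 there, its highest over the arrays, and that of the immediate early genes was 0.031. On the same scale Id4 was at -0.52 on 1423259_at and -0.36 on 1450928_at on that array, but at 0.24 on 1423260_at. The summed intensity of the astrocyte markers was 20440 on vehicle-titled array 3 and between 28952 and 36837 on the others. Between the arrays numbered 1 and the other 4, 1 of the 14 astrocyte markers lay above, 1 below and 12 overlapped, where 24.4%, 19.9% and 55.7% of all genes did. The part of other cells' RNA in the Id4 values was not tested.

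**Figure D5:**
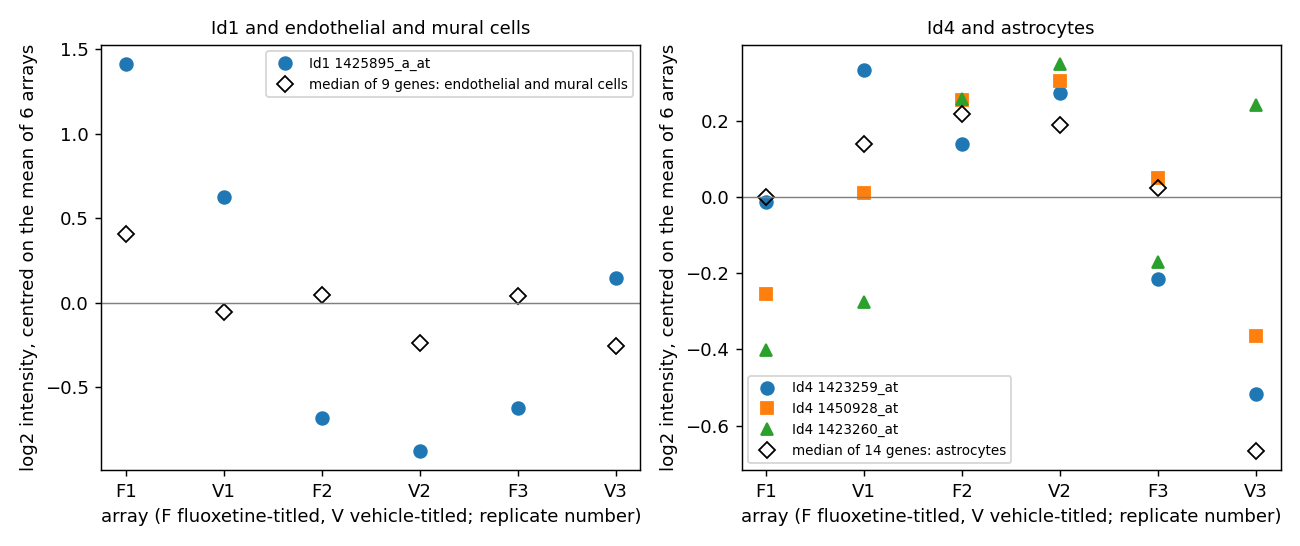
Log2 intensity per array, centred on the mean of the 6 arrays, for Id1 beside the median of 9 endothelial and mural markers (left) and for the 3 Id4 probe sets beside the median of 14 astrocyte markers (right). Id1 and the vessel median are both highest on fluoxetine-titled array 1 but part on vehicle-titled array 1 (0.62 and -0.056); 2 of the 3 Id4 probe sets and the astrocyte median are lowest on vehicle-titled array 3, as are the medians of 5 other marker lists, not drawn.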

How the data were processed

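The deposited table holds, for each array, the authors' linear GCRMA intensity of every probe set (tool named in the submitters' processing notes; its version is not given in the sources used here). Per the labels' protocols, 15 ng of RNA was amplified in a pair of cycles and labelled with biotin. Of 45101 probe sets, 64 controls were left out and 19073 had a mean of at least 50 in at least 1 group, after the submitters' advice to filter at 50 (read word for word it asks for both groups, which was an alternative). Names came from the platform annotation (34945 probe sets with 1 symbol, 932 with several, 9160 not listed), and RefSeq gave the same symbol for all 8 Id probe sets. Treatments were compared on the log2 scale by limma 3.58.1 in R 4.3.3 (lmFit, eBayes; two-sided), and p-values were adjusted by Benjamini-Hochberg across the 19073 probe sets. The code was tested on simulated data. For other genes the probe set of highest mean was used.

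Arrays of equal replicate number were read as pairs, although no label says what the number stands for. Deviations from group means correlated at 0.74, 0.60 and 0.50 within pairs 1, 2 and 3, and between -0.59 and 0.26 across numbers. Each group mean holds all 3 arrays, so an array far from the rest also shifts the deviations of the others, and these correlations are not independent. No 2 arrays were near-identical (SD of the log2 difference at least 0.23). The rule for named genes took all Id probe sets, genes of the lists, and the 3 genes most correlated with each Id gene. Members and lists were chosen with earlier results of these data known. Alternatives were the replicate block, a pseudocount of 16, a floor of 50, quantile normalization, other filters, and leaving out arrays.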

Additional observations from a re-analysis of the deposited data

How the results depend on the processing

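The count of probe sets past an adjusted p of 0.05 was 0 under every alternative run, with 767 at an unadjusted p of 0.05 under the replicate block in limma (smallest adjusted p = 0.993). With the replicate block the Id differences are the same and their standard errors smaller (0.11 for Id3, unadjusted p = 0.0624), and the block changed no call. The sign of the treatment difference held in 75 of 91 values for the Id probe sets and turned in 16. The replicate block, the floor of 50 and the other filters left the Id differences identical, so their values could not turn. All 16 turns came from leaving out arrays. Without pair 1 it was -0.29 for Id1, -0.083 for Id2 1435176_a_at and 0.082 for Id4 1423259_at. Leaving out 1 array at a time, it ranged from -0.62 to 0.43 for Id1, from -0.14 to 0.14 for Id2 1435176_a_at, from -0.29 to 0.11 for Id2 1422537_a_at, from -0.33 to 0.091 for Id4 1423259_at and from -0.14 to 0.19 for Id4 1450928_at; the cause was not tested. For Id3 it stayed between 0.11 and 0.37, and for Id4 1423260_at between -0.40 and -0.060, so both kept their sign. For the arrays numbered 1 against the other 4, leaving out 1 array gave 1.13 to 1.92 for Id1, 0.21 to 0.42 for Id2 1435176_a_at and 0.18 to 0.52 for Id3. Within the fluoxetine-titled and the vehicle-titled arrays, an alternative added after seeing the data, the difference was 2.06 and 0.99 for Id1 and 0.47 and 0.17 for Id2 1435176_a_at. With a pseudocount of 16, a floor of 50 or quantile normalization, every Id treatment difference kept its sign, and none of the differences of the arrays numbered 1 moved by more than the SD of the other 4. Of the list medians, 6 for the replicate number and 4 for the treatment moved by more than the spread between arrays, among them the treatment median of the Id partners, from -0.083 to 0.29 with 1 array left out. No depth or background signal is given with these intensities.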
